A study of Rattus norvegicus with 10 samples.

Results

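The genes described here encode the proteins of the cytosolic ribosome, grouped by the subunit they belong to. They were taken by symbol from the authors' deposited table: names starting with Rpl or Rps and a number, the stalk proteins Rplp0 to Rplp2, and Rpsa, without the Rps6k kinases. That gave 90 loci with 82 distinct symbols among 32402 listed genes, of which 56 loci belonged to the large and 34 to the small subunit. Reads had been counted in punches of the supraoptic nucleus (SON), a hypothalamic nucleus of magnocellular neurones that release vasopressin and oxytocin, from Wistar Han rats. One group of 5 samples came from rats with free access to drinking water (euhydrated), and the other 5 from rats kept 72 h without it (dehydrated). No transgene, drug or age is named in the labels. Whether the samples stem from separate animals is not stated, so the p-values cover the spread among these 5 and 5 samples, which could in part be technical.

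The cytosolic ribosome is built from ribosomal RNA and a set of proteins that are needed in near-equal numbers in each finished particle. The small subunit reads the messenger RNA, and the large subunit joins the amino acids and holds the exit tunnel through which the new chain leaves. In mammals most messenger RNAs of these proteins start with a C followed by an unbroken run of pyrimidines (C or T in DNA letters), the 5′ terminal oligopyrimidine (TOP) tract, through which mTORC1 signalling and the RNA-binding protein Larp1 control their translation and storage.

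To look for pyrimidine runs near the start, 30 bases around the annotated start site are printed for 12 genes, 15 on either side, on the strand of the gene and 5′ to 3′. The sequences are RefSeq's, on the rat build GRCr8, which need not be the build of the counts. Capitals mark the longest unbroken run of at least 6 C or T that touches the 10 bases on either side of the start (further runs stay in lower case), searched on the gene's own strand. The first 8 genes hold such a run and fell with dehydration, the next 2 hold one and did not pass the test, Rpl3 fell without one, and Rps27l has none and did not pass. The runs of Rpl27a and Rps23 go on past the printed bases. No leading C was required, and a run could lie wholly before the start site, as that of Rpl23 does. A run in capitals is therefore not by itself a TOP tract. These genes were picked after their values were seen.
Rpl4, chr8:73566462-73566491, plus strand: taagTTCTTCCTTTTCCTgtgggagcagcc
Rpl10, chrX:157205835-157205864, plus strand: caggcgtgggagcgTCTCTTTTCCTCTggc
Rpl27a, chr1:172974558-172974587, plus strand: cgagacttggtgggCTCCTCCCTCTTTCTT
Rpl35, chr3:43165907-43165936, minus strand: cgCCCCTTCCTCTTTCTCTCgaaccgggcg
Rps27, chr2:177964592-177964621, minus strand: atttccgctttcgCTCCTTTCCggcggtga
Rps15, chr7:10068101-10068130, minus strand: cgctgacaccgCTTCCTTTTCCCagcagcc
Rps23, chr2:23814502-23814531, plus strand: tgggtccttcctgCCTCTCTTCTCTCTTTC
Rps18, chr20:4933730-4933759, plus strand: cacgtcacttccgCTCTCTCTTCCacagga
Rpl23, chr10:83272170-83272199, minus strand: actaaCTTCCTTTCTgactctttccggacg
Rps10, chr20:5700730-5700759, minus strand: gccgcgcacgCCCCTTCCTTTCCagcctcc
Rpl3, chr7:113507976-113508005, minus strand: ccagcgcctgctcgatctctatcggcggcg
Rps27l, chr8:76443643-76443672, plus strand: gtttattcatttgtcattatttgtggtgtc

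Of the 90 loci, 62 were matched by symbol to the promoter table, and 47 of these (75.8%) held a run of this kind. Among all 33469 promoters listed by RefSeq, the share was 28.3%. The large subunit had it in 29 of 40 (72.5%) and the small subunit in 18 of 22 (81.8%). A match is a string of letters at or near an annotated start, which may differ from the start used in the SON. Rpl3 and Rpl11 fell without such a run in their windows, and Rps10 and Rpl23 hold one and did not pass.

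Members of both subunits were lower in dehydrated SON, each by a small amount. Of the 79 loci with enough counts to be tested, 36 fell and 0 rose at an edgeR adjusted p under 0.05 over all 15311 genes tested, and 43 did not pass. Over all genes tested, 4.90% fell and 7.79% rose. The fold change was negative for 74 of the 79 members (93.7%), beside 51.8% of all genes tested. The median was -0.12 on the log2 scale (all genes: -0.01). At an unadjusted edgeR p under 0.05, 0 members were higher and 49 were lower. The share of all genes at that unadjusted threshold is not given here. DESeq2 and limma-voom also called 0 members higher, and DESeq2 had 1 higher at an unadjusted p under 0.05. The 36 that fell did so by 6.27% to 19.2%, with a median of 10.4%. In the authors' deposited table, which came from DESeq2, the same 36 members had an adjusted p under 0.05 and a lower level, where 6.32% of its genes were lower and 9.05% higher. Scaling by library totals in place of TMM factors gave 42 members lower and 0 higher, while the count over all genes turned from 750 lower and 1192 higher to 1173 and 904.

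Both subunits showed this pattern. In the large subunit 18 of 46 tested loci fell (39.1%), 42 were negative and the median log2 fold change was -0.10. In the small subunit 18 of 33 fell (54.5%), 32 were negative and the median was -0.14. The difference between the subunits was not tested, because the members were proposed with results of these data known. Fewer cells of a type and less RNA per cell cannot be told apart in tissue punches.

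**Figure D1:**
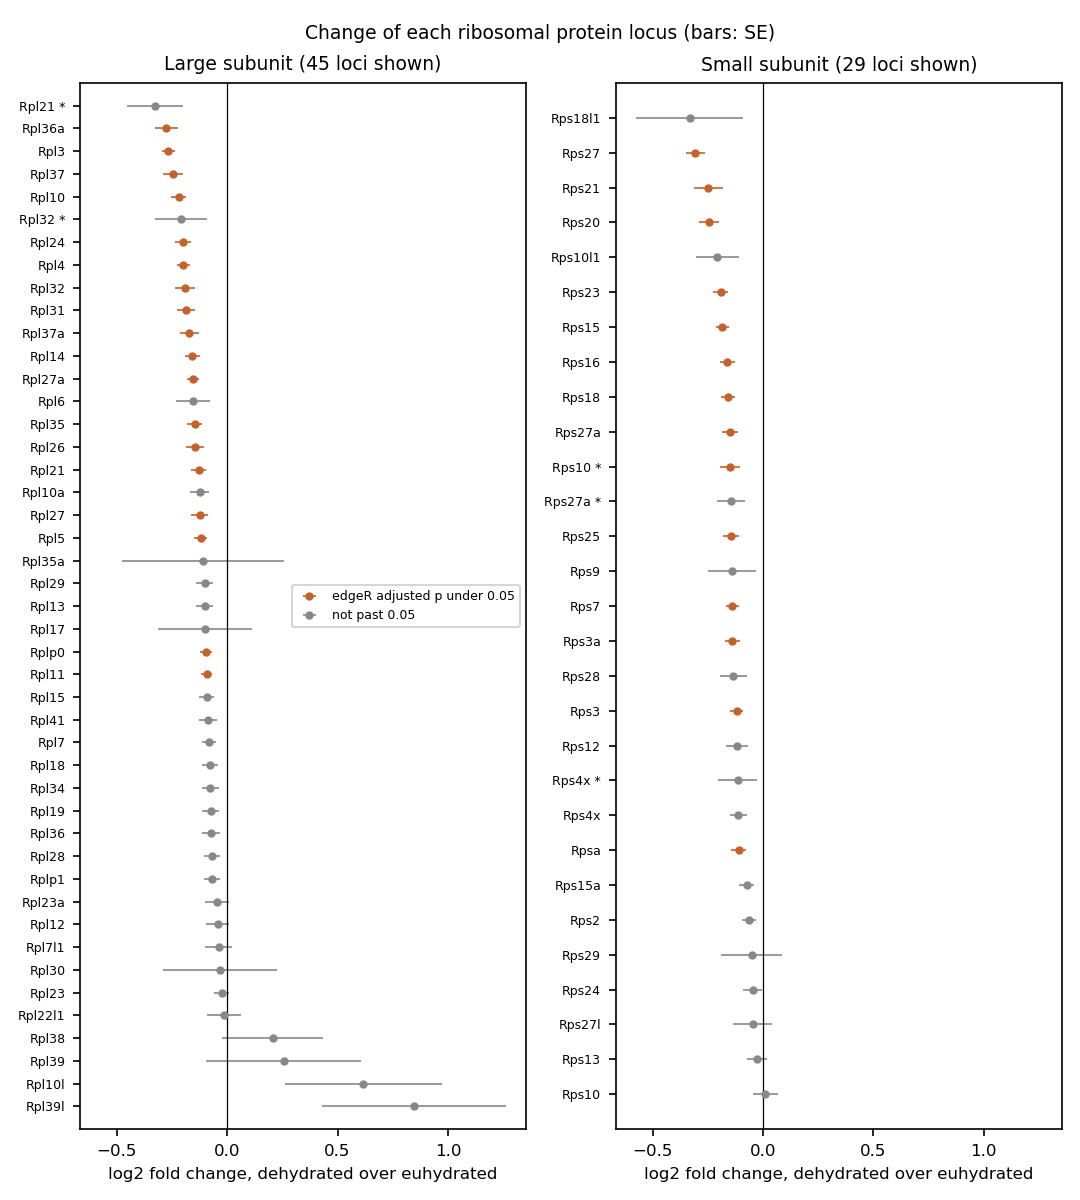
Log2 fold change (dehydrated over euhydrated, horizontal axis) of ribosomal protein loci, with the SE as a bar, for 45 of the 46 tested loci of the large and 29 of the 33 of the small subunit. Orange points passed an edgeR adjusted p of 0.05, 18 on the left panel and 14 on the right, all below 0; the 4 small subunit loci not drawn fell, the large subunit locus not drawn did not pass, and these are not reported singly, and an asterisk marks a further locus of the same symbol.

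Summed over loci, the fall can be seen in every library. Large subunit loci took 0.741%, 0.746%, 0.770%, 0.758% and 0.732% of all counts in euhydrated libraries 1 to 5, and 0.640%, 0.690%, 0.706%, 0.652% and 0.684% in dehydrated libraries 1 to 5. Small subunit loci took 0.430%, 0.432%, 0.456%, 0.450% and 0.422% against 0.375%, 0.402%, 0.408%, 0.380% and 0.394%. For both subunits every dehydrated library lay below every euhydrated one, with dehydrated 1 lowest and euhydrated 3 highest. These shares are of library totals, without the TMM factors used for the fold changes. Group means were 0.750% ± 0.0148 and 0.674% ± 0.0274 for the large subunit (SD, n = 5 each), a ratio of 0.900. The small subunit means were 0.438% ± 0.0144 and 0.392% ± 0.0143 (SD, n = 5 each), a ratio of 0.894. The ratio of large to small subunit counts was 1.71 ± 0.0235 in euhydrated and 1.72 ± 0.0110 in dehydrated libraries (SD, n = 5 each). Its ranges overlapped, from 1.69 to 1.73 and from 1.71 to 1.74, so a shift between the subunits was not seen beyond the spread.

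**Figure D2:**
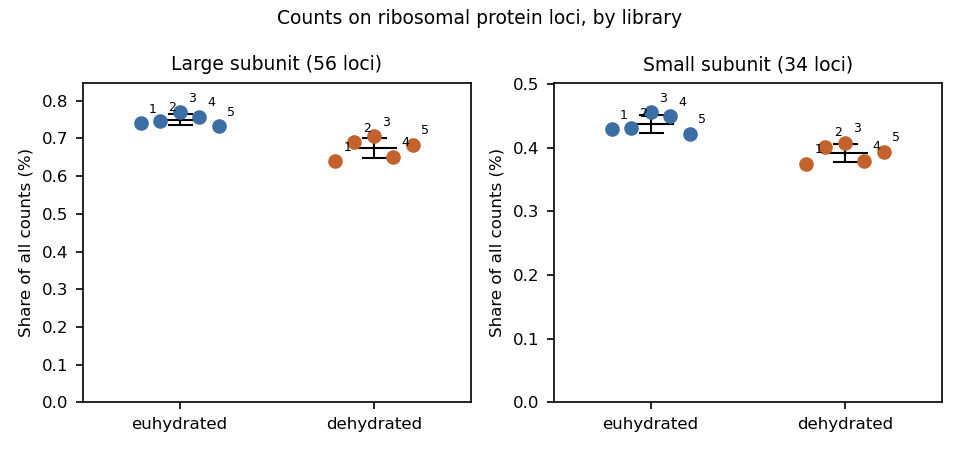
Share of all counts (%) on large subunit loci (left) and small subunit loci (right) in each library, numbered points, with group mean and SD as bars. All dehydrated points lie below all euhydrated ones in both panels, at most 0.706% against at least 0.732% on the left and at most 0.408% against at least 0.422% on the right.

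Well-counted members all had negative fold changes. At a mean of 100 CPM (each gene's counts relative to the library total, after TMM scaling) or more, 45 members were tested, all 45 were negative and 25 fell. Among all 2021 genes at this level 46.0% were negative, 7.62% fell and 16.2% rose. The large subunit had 13 of 28 lower and the small subunit 12 of 17. The limit of 100 CPM was chosen after the data were seen. Relative to each gene's euhydrated mean, the median log2 level of these genes was -0.18 (large) and -0.21 (small) in dehydrated 1, the lowest library, and -0.06 and -0.09 in dehydrated 3, the highest of its group. Euhydrated libraries had medians from -0.03 to 0.05 for the large and from -0.06 to 0.06 for the small subunit, with euhydrated 5 lowest and euhydrated 3 highest. All 45 genes lay under their euhydrated mean in dehydrated 1 and in dehydrated 4, and 35 did in dehydrated 3.

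**Figure D3:**
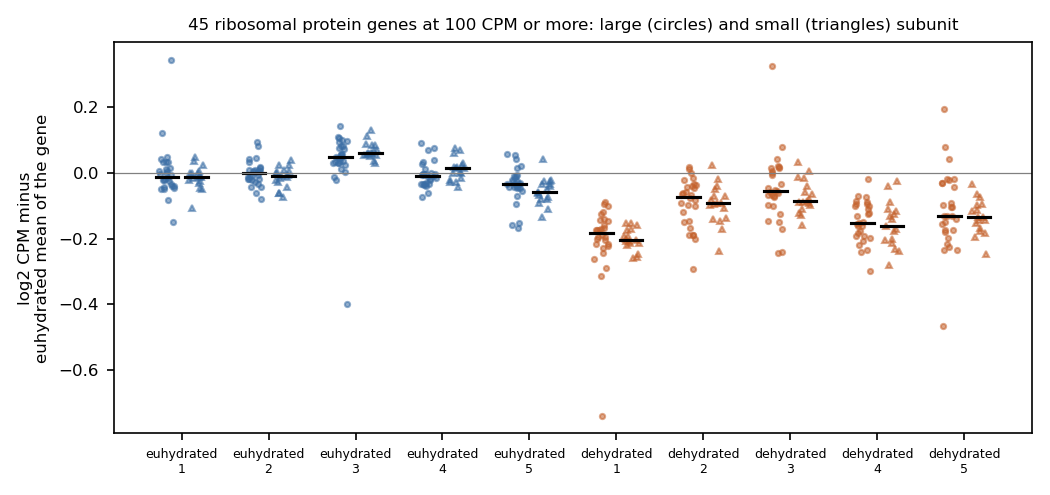
Level of 45 ribosomal protein genes at 100 CPM or more in each library, as log2 CPM minus the gene's euhydrated mean (vertical axis), with large subunit genes as circles, small subunit genes as triangles and their medians as black lines. Both medians lie below 0 in all 5 dehydrated libraries, lowest in dehydrated 1 at -0.18 and -0.21.

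Around the peptidyl transferase centre, where the large subunit joins amino acids, both tested members fell. Rpl3 (ENSRNOG00000016896) encodes a protein that reaches into this centre. Its level was 444, 446, 468, 433 and 434 CPM in euhydrated libraries 1 to 5 and 371, 363, 377, 362 and 378 CPM in dehydrated libraries 1 to 5. Every dehydrated value lay below every euhydrated value, and the means were 445 ± 14.1 and 370.1 ± 7.53 CPM (SD, n = 5 each). The log2 fold change was -0.27 with an SE of 0.029 and an edgeR adjusted p of 1.68e-05, the smallest among the members. Rpl10 (ENSRNOG00000056765), one of the last proteins to join the large subunit, had 249, 253, 274, 250.4 and 254 CPM in the euhydrated and 206, 223, 227, 217 and 227 CPM in the dehydrated libraries. The groups did not overlap, euhydrated 3 stood above the rest of its group, and the log2 fold change was -0.22 with an edgeR adjusted p of 0.000647. The symbol Rpl8, a further protein of this centre, had 0 counts in all 10 libraries. A locus outside the members described as L8-like (LOC100360117) had 17.1 CPM in the euhydrated and 15.8 CPM in the dehydrated group. It did not pass (edgeR adjusted p = 0.355).

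Genes of the exit tunnel were mostly lower, though not all passed the threshold. Rpl4 (ENSRNOG00000009378), which lines the tunnel, had 469, 482, 490.2, 475 and 462 CPM in the euhydrated and 389, 417, 429.5, 415 and 421 CPM in the dehydrated libraries. Dehydrated 1 was the lowest, no values overlapped, and the log2 fold change was -0.20 with an SE of 0.030 and an edgeR adjusted p of 0.000439. Of 8 tested genes whose proteins lie along or at the mouth of the tunnel, 7 were negative. Their median log2 fold change was -0.12 (all tested members: -0.12), and 4 fell. Beside Rpl4 these were Rpl31, from 99.4 to 87.4 CPM, Rpl35, from 246 to 222 CPM, and Rpl26, from 101 to 90.9 CPM. Rpl19 (290.2 ± 9.23 and 275 ± 15.3 CPM) and Rpl23a (219 ± 16.2 and 212 ± 13.7 CPM, SD, n = 5 each) did not pass. Neither did Rpl17, whose large SE is given below, nor Rpl39, which had few counts.

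Rpl5 and Rpl11 bind the 5S ribosomal RNA and, outside the ribosome, the p53 regulator Mdm2. Rpl5, the third most counted gene of its subunit, had 343, 335, 356, 353 and 337 CPM in the euhydrated and 302, 322, 330.4, 317 and 315 CPM in the dehydrated libraries. The groups were apart by a narrow gap, with an edgeR adjusted p of 0.0157. Rpl11 went from 219.6 ± 3.32 to 206 ± 3.29 CPM (SD, n = 5 each), also without overlap, with an edgeR adjusted p of 0.0243. The stalk, which recruits the translation factors that hydrolyse GTP, gave 1 call: Rplp0 fell by 6.51% (edgeR adjusted p = 0.0319), while Rplp1 had 243 ± 9.62 and 232 ± 10.2 CPM (SD, n = 5 each; edgeR adjusted p = 0.248). Rplp2 had 6 counts in all, and Rpl12, at the base of the stalk, had 107 ± 4.64 and 104 ± 9.30 CPM (SD, n = 5 each).

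Among the other large subunit genes, Rpl27a and Rpl36a had the smallest p-values. Rpl27a (ENSRNOG00000014214), conserved down to bacteria, had 255, 245, 255, 248 and 241 CPM in the euhydrated and 221, 225, 232, 222 and 217 CPM in the dehydrated libraries (edgeR adjusted p = 0.00183). Rpl36a (ENSRNOG00000011494) had 44.7, 42.2, 44.0, 43.1 and 41.4 CPM against 32.6, 38.7, 37.8, 33.7 and 35.1 CPM (edgeR adjusted p = 0.00186). Neither gene had overlapping groups, and Rpl36a, which fell by 17.4%, had the largest change among large subunit genes past the threshold. A separate locus described as L36a had 61.6 and 61.5 CPM in the 2 groups. The authors' second name column calls both loci Rpl36al, so their naming is ambiguous. The remaining large subunit genes past the threshold were Rpl37, Rpl24, Rpl14, Rpl32, Rpl37a, Rpl21 and Rpl27; Rpl27 fell by 8.22% and Rpl37 fell by 15.6%, with the others between.

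In the small subunit, Rps27 had the largest fall past the threshold. Rps27 (ENSRNOG00000016961), a protein with a zinc-binding motif, had 106, 104, 107, 112 and 96.2 CPM in the euhydrated and 84.6, 85.3, 91.4, 80.9 and 81.6 CPM in the dehydrated libraries. The highest dehydrated value stayed under the lowest euhydrated one, the fall was 19.2%, and the edgeR adjusted p was 0.000195.

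The head of the small subunit, which swivels as the messenger RNA moves, had 12 tested loci, of which 8 fell. Rps15 (ENSRNOG00000024603), which faces the large subunit, had 162, 164, 172, 165 and 161 CPM in the euhydrated and 143, 149, 147, 140.3 and 145 CPM in the dehydrated libraries. No values overlapped, and the log2 fold change was -0.18 with an edgeR adjusted p of 0.000599. Rps16, whose tail reaches the transfer RNA in the P site, had 352, 352, 365, 347 and 344 CPM against 305, 329, 332, 299 and 308 CPM (edgeR adjusted p = 0.00469), with the groups apart. Rps20, Rps18, Rps25, Rps27a, which is made as a fusion with ubiquitin, and a second Rps10 locus were among the others that fell. Of these Rps25 fell by 9.56% and Rps20 fell by 15.6%, with the others between.

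Along the path of the messenger RNA, Rps23 and Rps3 fell. Rps23, a protein of the decoding centre, went from 164 ± 6.23 to 144 ± 5.66 CPM (SD, n = 5 each; edgeR adjusted p = 0.00191), with the groups apart. Rps3, at the entry of the channel, had 261, 261, 273, 264 and 259.5 CPM in the euhydrated and 227, 245, 252.4, 244 and 246 CPM in the dehydrated libraries (edgeR adjusted p = 0.0191). All 5 dehydrated values were below the euhydrated ones, and dehydrated 1 was the lowest. Rps2, a protein of the same channel, had 221 ± 5.90 and 212 ± 8.71 CPM (SD, n = 5 each) and did not pass (edgeR adjusted p = 0.228).

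Rpsa, which also goes by the name of laminin receptor, had the most counts of the small subunit genes. Its values were 403, 395, 434, 420.4 and 428 CPM in the euhydrated and 364, 396, 391, 381 and 395 CPM in the dehydrated libraries. The groups overlapped by 1 dehydrated library, number 2, and the edgeR adjusted p was 0.0415. Rps7, Rps3a and Rps21 fell as well. Rps3a fell by 9.18% and Rps21 fell by 15.7%, with Rps7 between. Rps6, the substrate of the S6 kinases, had 0 counts in all 10 libraries. As counting error only, this allows up to 3 counts per library, or 0.105 to 0.126 CPM. How reads of this gene were assigned is not known here, so 0 counts need not mean that its RNA was absent. A locus described as S6-like had 47 counts in all.

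**Figure D4:**
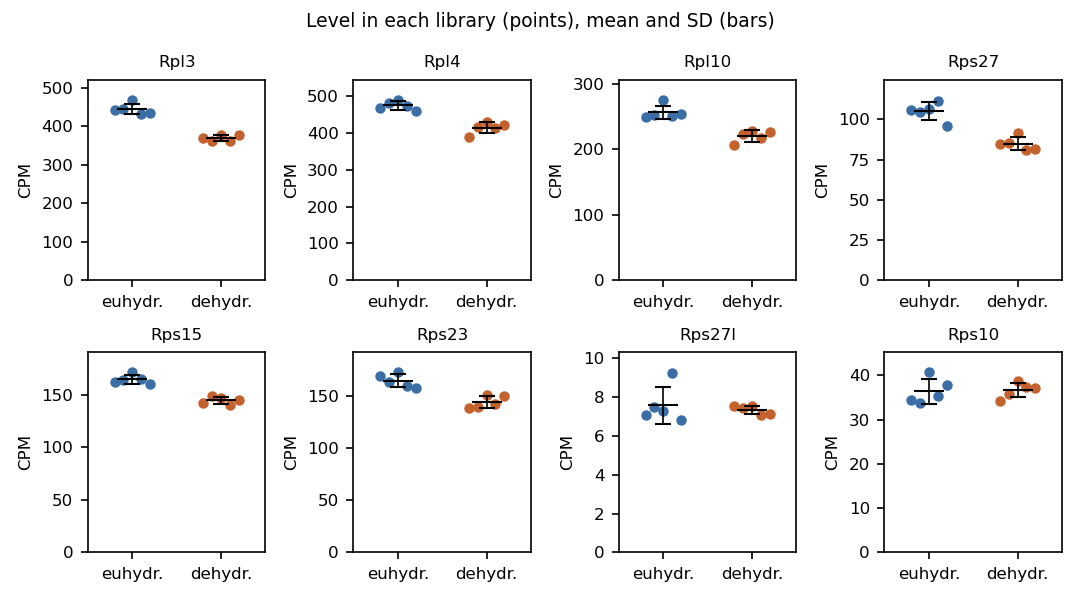
CPM in each library (points) with group mean and SD (bars) for 8 genes, on axes that start at 0. Rpl3, Rpl4, Rpl10, Rps27, Rps15 and Rps23 have no overlap between groups, whereas Rps27l (7.59 and 7.34 CPM) and Rps10 (36.4 and 36.7 CPM) overlap.

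Groups that do not overlap were common among the members. In 26 tested members (13 in each subunit) all 5 dehydrated libraries lay below all 5 euhydrated ones, and in 0 members above. Over all genes tested, 3.97% had all dehydrated values below and 6.90% had them above. Of the 36 members that fell, 25 had no overlap. The remaining one without overlap, Rps15a, had 225, 231, 239, 227 and 225 CPM against 203, 223, 223, 216 and 224 CPM. It did not pass (edgeR adjusted p = 0.156) and was singled out after its values were seen.

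The extremes of the fold changes lay mostly at little-counted loci. The largest falls in the fit belonged to little-counted loci that did not pass: a second Rpl21 locus (ENSRNOG00000032803) with 2.78, 3.26, 3.10, 3.04 and 2.90 CPM against 2.29, 2.10, 2.14, 2.57 and 2.92 CPM, and Rps18l1 with 1.81, 1.25, 1.01, 1.26 and 1.38 CPM against 0.619, 1.01, 0.850, 1.52 and 1.36 CPM. Both had overlapping groups (edgeR adjusted p = 0.107 and 0.418). At the other end, Rpl39l had 0.361, 1.15, 0.976, 0.419 and 0.362 CPM against 1.78, 0.584, 0.776, 0.885 and 1.88 CPM. Its groups overlapped too (edgeR adjusted p = 0.219). Rps10 had 34.4, 33.6, 40.7, 35.4 and 37.7 CPM against 34.3, 35.9, 38.7, 37.3 and 37.1 CPM, an overlap of the whole dehydrated range. A second locus named Rps10 went from 28.7 ± 1.05 to 25.9 ± 1.17 CPM (SD, n = 5 each), with an edgeR adjusted p of 0.0480. How reads were divided between these 2 loci is not known here.

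Among tested members at 10 CPM or more, Rpl17 and Rpl30 had the largest SEs and were singled out for that after their values were seen. Rpl17, a protein of the tunnel exit, had 280.1, 234, 168, 220.1 and 217 CPM in the euhydrated and 132, 194, 277, 188 and 253 CPM in the dehydrated libraries. Rpl30 had 57.3, 40.04, 44.2, 42.8 and 37.5 CPM against 20.5, 56.9, 39.7, 49.1 and 50.9 CPM. In both, euhydrated 1 was the highest library of all and dehydrated 1 the lowest. Their SEs on the log2 scale were 0.214 and 0.259, where the median member had 0.040, so that a fall of the common size could not have been seen in either.

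The 7 tested paralogs, close copies of a core protein gene, gave 0 calls. Of proteins conserved down to bacteria 18 of 29 fell (62.1%), and of those without a bacterial counterpart 18 of 43 (41.9%), beside 4.90% over all genes tested. The median log2 fold changes of these classes were -0.12 and -0.13, with median SEs of 0.033 and 0.042. Their difference in calls was not tested. The paralogs had few counts and a median SE of 0.098, and 5 of the 7 were negative. A ratio of paralog to parent gene within a library does not depend on scaling, and 3 of the 7 pairs listed could be compared in this way. Rps27l had 67.2, 71.7, 68.5, 83.0 and 71.4 counts per 1000 of Rps27 in the euhydrated and 89.3, 87.3, 82.7, 87.7 and 87.4 in the dehydrated libraries. Only dehydrated 3 fell within the euhydrated range, under euhydrated 4. The difference was 0.27 on the log2 scale, with an exact two-sided permutation p of 0.0159, adjusted to 0.0476 over the 3 pairs. Rps27l itself stood at 7.59 ± 0.955 and 7.34 ± 0.225 CPM (SD, n = 5 each), so the ratio moved with the Rps27 counts already described. When 1 of dehydrated libraries 1, 2, 4 or 5 was left out, the adjusted permutation p rose to between 0.0595 and 0.0714.

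For Rpl10l over Rpl10 the log2 difference was 0.83 with an exact permutation p of 0.0873 (adjusted 0.131). For Rpl7l1 over Rpl7 it was 0.05 with an exact permutation p of 0.468. Both pairs had overlapping groups, and Rpl10l had only 1.03 and 1.58 CPM in the group means. Rpl22l1, whose parent gene is not among the members, had 23.0 ± 1.91 and 22.8 ± 2.65 CPM (SD, n = 5 each).

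The 11 other loci had too few counts for a test, and several of the missing proteins appeared under other names. Rpl8, Rps6, Rpl30l1 and Rplp0l1 had 0 counts, and Rpl9, Rplp2, Rpl3l, both Rpl7a loci and 2 more Rpl21 loci were near 0. Outside the rule, 82 loci are described as ribosomal proteins under other symbols. Of the 35 tested, 5 fell (14.3%) and 0 rose, with a median log2 fold change of -0.09. Over all genes tested, 4.90% fell and 7.79% rose. A locus described as L9-like (LOC100360449) went from 229 ± 6.80 to 206 ± 7.40 CPM (SD, n = 5 each; edgeR adjusted p = 0.00491). One described as S29 (LOC108352650) went from 129.9 ± 5.50 to 113 ± 5.70 CPM (SD, n = 5 each; edgeR adjusted p = 0.00413), whereas the member named Rps29 had only 3.17 and 3.06 CPM. Of the 90 member loci, 14 share 6 symbols and 4 carry a pseudogene name in the authors' second name column, so the counts of single loci are uncertain. This set was drawn up after the data were seen.

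The mitochondrial ribosome, which makes the few proteins encoded by mitochondrial DNA, had a median change nearer to 0, a difference that was not tested. Of 74 tested genes of its proteins, 4 fell (5.41%), 3 rose (4.05%) and 48 were negative (64.9%). Over all genes tested these shares were 4.90%, 7.79% and 51.8%. The median log2 fold change was -0.03, against -0.10 and -0.14 for the cytosolic subunits. Among proteins of the cytosolic ribosome without an Rpl or Rps name, Rack1, a signalling scaffold on the small subunit, had 206 and 197 CPM and did not pass (edgeR adjusted p = 0.295), and Fau had 0 counts.

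**Figure D5:**
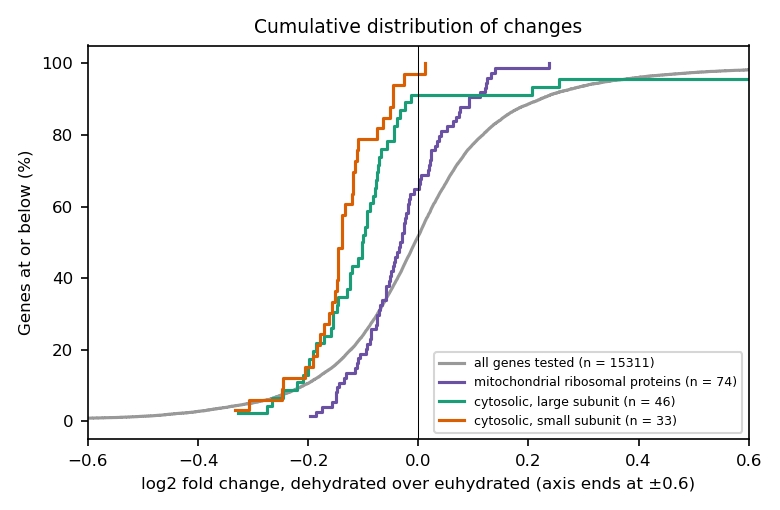
Cumulative distribution of log2 fold changes (dehydrated over euhydrated, horizontal axis) as the percent of genes at or below each value, for all genes tested, mitochondrial ribosomal proteins and the 2 cytosolic subunits. The medians are -0.01, -0.03, -0.10 (large) and -0.14 (small).

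Of the 42 tested members with a pyrimidine run at or near the annotated start, 22 fell, with a median log2 fold change of -0.12. Of the 14 without one, 5 fell, with a median of -0.10. Those without a run included the paralogs Rpl7l1, Rpl22l1 and Rps27l, with log2 fold changes of -0.04, -0.01 and -0.05. A difference between members with and without a run was not tested. Other messenger RNAs known for a TOP tract moved in both directions: of 17 tested, 4 fell and 2 rose. These shares were 23.5% and 11.8%, beside 4.90% and 7.79% over all genes tested. Eef1a1, the elongation factor that brings transfer RNAs to the ribosome, went from 1625 ± 68.6 to 1504 ± 55.7 CPM (SD, n = 5 each; edgeR adjusted p = 0.0470). The initiation factor genes Eif4a2 (762 to 668 CPM, edgeR adjusted p = 0.000184), Eif4b (259.9 to 227 CPM, edgeR adjusted p = 0.00257) and Eif2s3 also fell. Eif3l, another initiation factor gene, and Pabpc1, the poly(A)-binding protein (149 to 161 CPM, edgeR adjusted p = 0.0401), rose.

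Among 20 tested regulators of ribosome production and TOP translation, 2 rose (10.0%) and 0 fell. Over all genes tested 7.79% rose and 4.90% fell, and no difference of this list from all genes was tested. Eif4ebp1, an inhibitor of cap-dependent translation that mTORC1 switches off, rose from 7.72 ± 1.00 to 13.1 ± 0.968 CPM (SD, n = 5 each; edgeR adjusted p = 3.69e-05). Rheb, the activator of mTORC1, rose from 99.6 ± 2.94 to 109.9 ± 1.75 CPM (SD, n = 5 each; edgeR adjusted p = 0.00539). Larp1, which binds TOP tracts, had 134 ± 5.30 and 144 ± 3.55 CPM (SD, n = 5 each; edgeR adjusted p = 0.0519), and Mtor had 115 and 111 CPM. Of 19 tested genes for assembly factors and chaperones of ribosomal proteins, 3 rose (15.8%), namely Tsr1, Efl1 and Nmd3, and 0 fell. This share was not tested against that of all genes either.

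Libraries held 24268398 to 28491926 counts, and Avp and Oxt, which mark the magnocellular neurones, stood at 6153 and 2993 CPM in the euhydrated group. The summed level of 8 magnocellular markers ranged from 7869 to 11301 CPM in the euhydrated and from 11547 to 15326 CPM in the dehydrated libraries, so it moved with the group. Avp was the largest part of this sum. It stood at 8475 CPM in the dehydrated group and did not pass (edgeR adjusted p = 0.080), nor did Oxt (edgeR adjusted p = 0.254). Of the 8 markers 3 rose (37.5%) and 0 fell, beside 7.79% and 4.90% over all genes tested. Of 8 matched erythrocyte markers none was at 0 in every library, 7 were tested, all 7 were negative and 1 fell (Slc4a1). Their summed level ranged from 1027 to 2058 CPM and from 591 to 1428 CPM. Their mean log2 CPM was 5.63 ± 0.490 in the euhydrated and 4.79 ± 0.567 in the dehydrated libraries (SD, n = 5 each), with overlapping ranges. With this level as a covariate 16 members stayed past the threshold, the medians were -0.11 (large) and -0.15 (small), and the SE of a member rose 1.37 times (median). Of 9 oligodendrocyte markers 2 fell (Cnp and Opalin), and their summed level ranged from 10042 to 14567 CPM and from 9617 to 12277 CPM. The part of these cell types in the ribosomal protein values was not tested otherwise. Without euhydrated 3, 24 members fell, 11 of them in the small subunit.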

How the data were processed

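Per the file headers, the authors deposited a table of unscaled whole-number counts for each Ensembl gene, and a table of their own DESeq2 comparison. The latter holds, per the file headers, log2 fold changes, p-values, the Wald score and a normalised signal per sample. Polyadenylated RNA had been sequenced with a stranded kit, per the labels' protocols. The submitters' processing notes name STAR, featureCounts and DESeq2 1.28.1. For the counting, neither build nor strand setting is given in the sources used here. Libraries keep the number of their count column; 3 euhydrated columns could be tied to the group only.

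The counts of 32402 genes were filtered with filterByExpr (15311 kept), scaled by TMM and tested with edgeR 4.0.16 (glmQLFit, robust) in R 4.3.3, with Benjamini-Hochberg adjustment over all genes and a threshold of 0.05. A prior count of 2 was added for the log2 CPM of the erythrocyte markers and for the correlations of deviations. The log2 CPM of members at 100 CPM or more had none added. Log2 fold changes are dehydrated over euhydrated. Paralog ratios, for pairs with at least 10 counts in every library and with 0.5 added to each count, were compared by exact permutation. The members, lists, named genes and tests were chosen with earlier results of these data known. Values are given for up to 8 members with the smallest p, the 3 most counted per subunit, the largest rise and fall per subunit, and members of the roles described; some of these are not reported here. Alternatives were other scalings and filters, DESeq2 1.42.0, limma-voom (limma 3.58.1), blocks by replicate number, a surrogate variable (sva 3.50.0), the erythrocyte marker level and each library left out.

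On simulated data for this comparison (15215 genes), the edgeR test recovered 14.0% of genes changed 1.1-fold and 78.0% of those changed 1.25-fold. It recovered 94.0% at 1.5-fold and 98.0% at 2-fold, and called 0.0932% of unchanged genes. Only 50 genes were changed at each fold, whereas 750 were called lower and 1192 higher in the data. The recovered shares therefore need not hold for the members. Transcript lengths were not used, so levels of different genes are shares of counts, not amounts of RNA.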

Additional observations from a re-analysis of the deposited data

Results flagged for a closer look

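In 162 groups of 5 libraries, 7 held a library that stood apart from the rest of its group by more than 0.71 of the group's range, and chance alone flags about 1 in 20. Of these groups, 148 were the 2 groups of 74 tested member loci, and the others were shares of counts, erythrocyte level and paralog ratios. Euhydrated 3 was the highest of its group for Rpl10 (274.5 CPM, next 254 CPM) and Rpl11 (225.4 CPM, next 219 CPM). Euhydrated 5 was the lowest for Rpl37a (174.2 CPM, next 198 CPM), and euhydrated 4 the highest for Rps27l (9.245 CPM, next 7.48 CPM). Among dehydrated libraries, number 5 was the lowest for Rpl6 (149.1 CPM, next 189 CPM) and number 4 the lowest for Rpl38 (0.5479 CPM, next 0.857 CPM). The log2 ratio of Rps27l to Rps27 was lowest in dehydrated 3, at -3.596, and the next was -3.52.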

How the results depend on the processing

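Over 23 alternatives and 47 named members that were tested, 932 values kept their side of the threshold, 146 lost the call, 1 gained it, and 0 called values changed sign. Rpl3, Rpl4, Rpl10, Rps27 and Rps23 kept the call under every alternative. Members lower, large, small, all genes lower and all genes higher numbered 16, 8, 8, 201 and 583 with the erythrocyte covariate and 18, 10, 8, 233 and 658 at an adjusted p of 0.01. With library totals 1173 genes were lower.

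The numbers shared by the groups did not pair the libraries (correlations of deviations from -0.07 to 0.14). Only numbers 1 and 2 are given by the labels for both groups, and the replicate block over these 4 libraries gave 7, 4, 3, 142 and 350. The same 4 libraries without the block, an alternative added after seeing the data, gave 5, 2, 3, 59 and 248, so the loss comes with the smaller number of libraries. A block by column number over 10 libraries left 38 members lower.

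Leaving out each library in turn gave 24 to 35 members lower, 13 to 19 large and 11 to 17 small, with both lowest totals for the members and the small subunit without euhydrated 3. The log2 difference of the Rps27l ratio ranged from 0.24 to 0.32, that of the Rpl10l ratio from 0.62 to 1.06. In no alternative did a member rise. Changes near 1.1-fold are at the limit of what this depth and number of libraries can call.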
